A study of Mus musculus with 4 samples.

Results

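*Ucp1* and 9 further effector genes of brown adipocytes, *Cidea*, *Cox8b*, *Cox7a1*, *Dio2*, *Kcnk3*, *Letmd1*, *Pank1*, *Aspg* and *Fabp3*, were followed in perivascular adipose tissue (PVAT) around injured and sham-operated femoral arteries (FAs). All 10 were found by symbol among the 12661 genes measured. They were selected on their higher values after injury in these same libraries, so that their differences are given as a description, without a test. Bulk RNA was sequenced from the outer tissues of the FA, which are mainly PVAT, in wild-type mice, C57BL/6 by the labels and C57BL/6J by the study's methods. The animals of both groups were ovariectomized females, 11 weeks old by the labels. In the injury group a spring wire of 0.38 mm had been passed into the FA 48 h before collection, and the sham group was operated on without it and collected at the same time. There were 2 libraries a group, with 480 ng of total RNA going into each.

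Brown adipocytes produce heat by oxidizing fatty acids in densely packed mitochondria. UCP1 carries protons back across the inner mitochondrial membrane without ATP synthesis, and the respiratory chain, in which cytochrome c oxidase is the last complex, then runs fast to keep the proton gradient. Noradrenaline acting on β-adrenergic receptors raises cAMP, which sets off lipolysis and the transcription of *Ucp1* and *Dio2*. Beige adipocytes are cells within white fat that take on this program, and PVAT can resemble white or brown fat according to the vessel and the species.

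The values were signed numbers around a centre set for each gene, on a log-like scale whose base is not stated. They are called deposited units here. A value above 0 lies above that gene's own centre, which was not the mean of these libraries, and levels of different genes cannot be compared. No fold change is given, and the sequencing depth and abundance behind a value are unknown. As the tissue was a mixture, a change in the number of cells of a type and a change in RNA per cell cannot be told apart. All 14 pan-adipocyte markers examined were in the table, but how abundant they were could not be read from it. The labels do not say that the replicates were separate animals, so that p-values measure only the spread between these libraries. Genes outside the 10 were tested with limma, with Benjamini-Hochberg adjustment over all 12661 genes and a threshold of 0.05.

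For all 10 effector genes, the lower of the injury values lay above the higher of the sham values. This was the pattern for which they had been selected, and 31.6% of all genes tested showed it. The difference between the group means, injury minus sham, ran from 0.78 deposited units for *Cox8b* to 2.15 for *Cidea* and had a median of 1.11, against 0.0085 over all genes. A difference above 1 was seen in 7 of the 10 and in 4.14% of all genes. Their 40 values were all above 0, the sham values included. Both sham values were above 0 in 37.4% of all genes, in 12 of 14 pan-adipocyte genes, and in all 9 smooth muscle and all 11 endothelial genes analysed. All 4 values were above 0 in 11.7% of all genes.

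**Figure D1:**
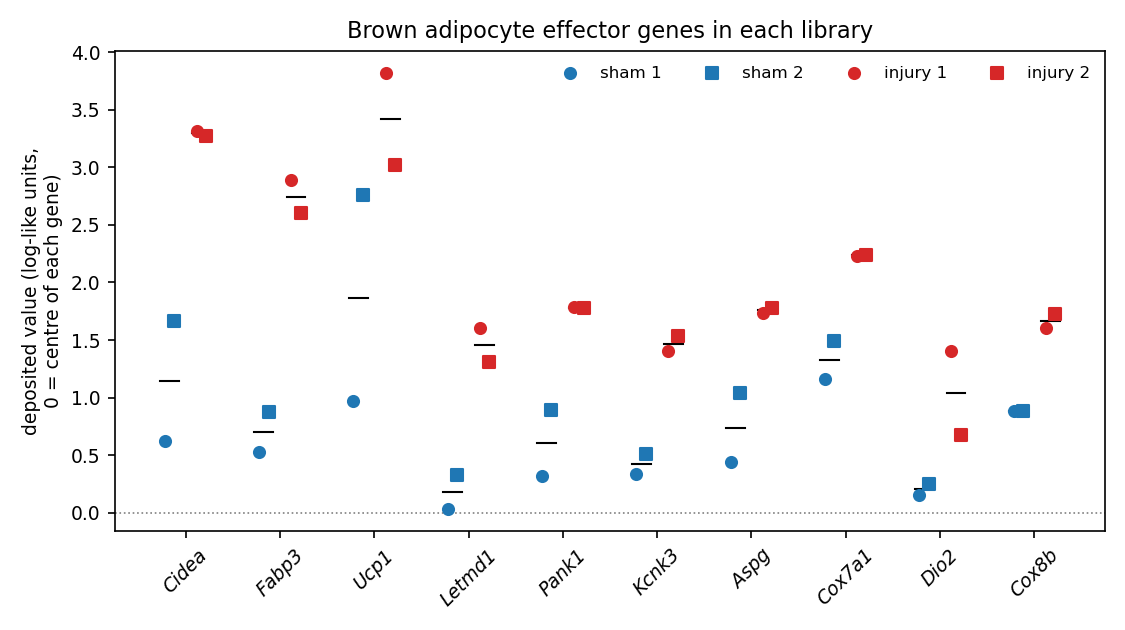
Deposited values (log-like units, 0 at each gene's own centre) of the 10 effector genes in the 4 libraries, ordered by the difference between groups. Circles are replicate 1, squares are replicate 2, blue is sham, red is injury and the short black lines are group means. Both red points lie above both blue points for each gene, with the narrowest space for *Ucp1* (0.26) and the widest for *Fabp3* (1.73).

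*Ucp1*, the proton carrier that defines thermogenic fat, lies on chromosome 8 of mm9 from 85814247 to 85822355. It was at 0.97 and 2.76 in sham replicates 1 and 2 and at 3.82 and 3.02 in injury replicates 1 and 2. The groups did not overlap, but sham replicate 2 came within 0.26 of the lower injury library, and the sham libraries differed from each other by 1.79. The means were 1.87 ± 1.27 (SD, n = 2) and 3.42 ± 0.57 (SD, n = 2), a difference of 1.55. Already in sham replicate 2, *Ucp1* stood further above its centre than 99.98% of genes stood above theirs. *Letmd1*, which encodes a LETM1 domain protein of the mitochondria, lies on chromosome 15 from 100299465 to 100309683. Its sham values of 0.03 and 0.32 were near its centre, and its injury values were 1.61 and 1.31. The space between the groups (0.99) was over 3 times the difference between the sham libraries (0.29) or the injury libraries (0.30), unlike that of *Ucp1*. The means were 0.18 ± 0.21 and 1.46 ± 0.21 (SD, n = 2 each), which differed by 1.28.

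*Dio2* encodes the type II deiodinase, which makes active thyroid hormone inside the cell, and lies on chromosome 12 from 91962994 to 91976878. It was at 0.16 and 0.25 after sham operation and at 1.41 and 0.67 after injury. Both injury libraries were above both sham libraries, and injury replicate 1 was the higher of the injury pair. The group means of 0.20 ± 0.06 and 1.04 ± 0.52 (SD, n = 2 each) differed by 0.84. *Kcnk3* encodes the potassium leak channel TASK-1, which sets the resting membrane potential, and lies on chromosome 5 from 30890543 to 30927643. It was at 0.34 and 0.51 in the sham libraries and at 1.41 and 1.53 in the injury libraries. Here the libraries of each group lay close together, with means of 0.43 ± 0.12 and 1.47 ± 0.09 (SD, n = 2 each) and a difference of 1.04. In the reference annotation of mm9, a long non-coding RNA gene on the other strand, *Gm16738*, overlaps *Dio2*.

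Promoter sequences of RefSeq, from 250 bases before to 50 bases after the transcription start, were at hand for 8 of the 10 genes, with a further start for *Pank1*, 9 windows in all. The table is of GRCm38.p6, and each window matched mm9 at 1 place, whose coordinates are given. Windows are shown for *Ucp1*, at the centre of the program, for *Dio2* and *Fabp3*, the genes with letters of a cAMP response element (CRE), and for *Cox8b*, whose TATAAA lies after the annotated start. Capitals mark motif letters on either strand. The motifs are AGGTCA, the single site of nuclear receptors, and TTGGCA, the single site of nuclear factor I (NFI), which reads TGCCAA where it lies on the other strand. They are also TGACGTCA, the full CRE, its short form TGACGT, and TATAAA. The windows lie at chr8:85813997-85814296 on the plus strand for *Ucp1* and at chr4:129985732-129986031 on the plus strand for *Fabp3*. They lie at chr12:91977429-91977728 on the minus strand for *Dio2* and at chr7:148086296-148086595 on the minus strand for *Cox8b*. For *Dio2* and *Fabp3* the RefSeq start differs from that of the gene position given in this text. The window of *Dio2* lies wholly outside that position, which ends at 91976878. Motif positions are counted from the RefSeq start.
*Ucp1*: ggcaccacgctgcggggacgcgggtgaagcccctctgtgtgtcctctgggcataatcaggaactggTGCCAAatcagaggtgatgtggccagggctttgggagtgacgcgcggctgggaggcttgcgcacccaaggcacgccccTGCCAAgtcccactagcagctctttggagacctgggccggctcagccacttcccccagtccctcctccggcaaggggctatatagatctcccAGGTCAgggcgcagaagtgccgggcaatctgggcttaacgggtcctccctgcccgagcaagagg
*Dio2*: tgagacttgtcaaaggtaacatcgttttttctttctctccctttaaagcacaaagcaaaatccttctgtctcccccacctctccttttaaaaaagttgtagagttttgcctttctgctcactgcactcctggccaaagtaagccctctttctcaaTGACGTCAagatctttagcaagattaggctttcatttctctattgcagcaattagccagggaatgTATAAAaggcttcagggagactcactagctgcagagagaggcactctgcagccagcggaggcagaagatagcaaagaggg
*Fabp3*: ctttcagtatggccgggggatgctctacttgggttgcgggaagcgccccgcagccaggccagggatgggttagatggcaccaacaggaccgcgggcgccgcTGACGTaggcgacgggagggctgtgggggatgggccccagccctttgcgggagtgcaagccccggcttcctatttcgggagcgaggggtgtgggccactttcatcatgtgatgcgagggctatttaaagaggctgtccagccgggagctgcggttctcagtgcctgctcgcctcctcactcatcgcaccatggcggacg
*Cox8b*: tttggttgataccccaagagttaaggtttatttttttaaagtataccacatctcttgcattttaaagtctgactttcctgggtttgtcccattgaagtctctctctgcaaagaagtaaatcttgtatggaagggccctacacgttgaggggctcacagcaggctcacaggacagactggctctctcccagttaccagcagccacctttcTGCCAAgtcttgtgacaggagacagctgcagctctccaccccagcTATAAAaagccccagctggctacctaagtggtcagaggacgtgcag

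The window of *Dio2* held a full CRE at positions -95 to -88 from the start, which by its letters holds the short form on both strands, and a TATAAA at -30 to -25. A full CRE was found in 1.79% of 32851 RefSeq promoter windows of the same length, and in no other window of these genes. *Fabp3* held the short form TGACGT at -149 to -144 (7.51% of all windows). *Ucp1* held AGGTCA at -14 to -9 (16.3% of all windows), and the NFI site on the other strand at -184 to -179 and -106 to -101 (14.1%). *Cox8b* held TATAAA at 5 to 10 bases after the start, and *Pank1* held it at -35 to -30 and, on the other strand, at -234 to -229 in its first listed window (13.6% of all windows). The NFI site also lay in *Cox8b* at -41 to -36 and was in both windows of *Pank1*. *Letmd1* held AGGTCA at -201 to -196, and CCAAT, which 37.4% of all windows hold, was in *Letmd1*, *Cox7a1* and the second listed window of *Pank1*. *Aspg* held none of these letters. The direct repeat DR1, the estrogen-related receptor element, the NFI palindrome and the EBF motif, searched on both strands, were in none of the 9 windows. Each of these was rare, at 0.04%, 0.42%, 0.04% and 0.90% of all windows. These are matches of letters, not sites of binding. The windows also differed in base composition, since that of *Letmd1* was 79.0% G and C with 48 CpG, while those of *Cox8b*, *Dio2* and *Aspg* held 2, 3 and 3 CpG, against a median of 7 over all windows.

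**Figure D2:**
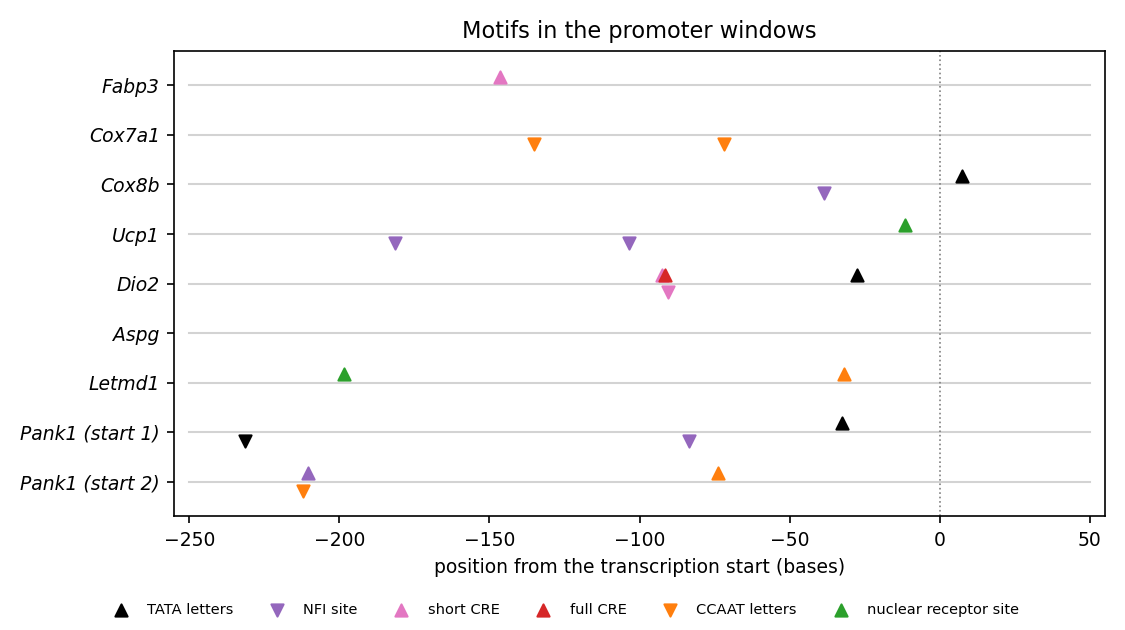
Motif matches in the 9 RefSeq promoter windows of 8 effector genes, by position in bases from the transcription start at 0. Triangles pointing up are on the strand of the gene and those pointing down on the other strand, and colours give the motif. The full CRE is in *Dio2* only, and *Aspg* has no match.

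*Cox8b* and *Cox7a1* encode the isoforms of cytochrome c oxidase subunits that are found in brown fat and in striated muscle. *Cox8b*, on chromosome 7 from 148084842 to 148086345, had nearly the same value, 0.89 and 0.88, in the sham libraries. It was at 1.60 and 1.73 after injury. Its difference of 0.78 was the smallest of the 10, and also one of the most even, because the SDs within groups were 0.0018 and 0.09. *Cox7a1*, on chromosome 7 from 30969190 to 30971047, was at 1.17 and 1.49 after sham operation and at 2.23 and 2.24 after injury. The means of 1.33 ± 0.23 and 2.24 ± 0.0040 (SD, n = 2 each) differed by 0.91, and the injury libraries were almost equal. For *Cox7a1* alone the scaling of the columns moved the difference by over 1.5 times, to 0.53, and made the groups overlap, when the 4 columns were quantile normalized. Of the other genes, *Ucp1* lost its space between the groups under that scaling, with equal values in sham replicate 2 and injury replicate 2. The remaining 8 genes kept theirs.

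*Pank1* encodes pantothenate kinase, which catalyses the committed step of coenzyme A synthesis, and lies on chromosome 19 from 34885384 to 34953945. It was at 0.32 and 0.89 in the sham libraries and at 1.79 and 1.77 in the injury libraries. The injury libraries agreed closely while the sham libraries did not, and the difference was 1.18. *Aspg* encodes an asparaginase, which splits asparagine into aspartate and ammonia, and lies on chromosome 12 from 113344894 to 113365784. It was at 0.44 and 1.04 after sham operation and at 1.74 and 1.78 after injury, with a difference of 1.02. As in *Pank1*, sham replicate 2 was the higher sham library, and the injury libraries were almost equal.

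*Cidea* encodes a lipid droplet protein of brown adipocytes and lies on chromosome 18 from 67503218 to 67527448. It was at 0.62 and 1.67 after sham operation and at 3.32 and 3.27 after injury. The lower injury library was 1.61 above the higher sham library, and the difference of 2.15, from 1.14 ± 0.74 to 3.30 ± 0.03 (SD, n = 2 each), was the largest of the 10 and ranked 33 among the 12661 genes. *Fabp3* encodes the heart-type fatty acid binding protein, which carries fatty acids through the cytosol, and lies on chromosome 4 from 129985839 to 129992707. Its values were 0.52 and 0.88 in the sham libraries and 2.89 and 2.61 in the injury libraries. With a difference of 2.05 and rank 55, it had the widest space between the groups of the 10, 1.73. The long non-coding RNA gene *B430212C06Rik* overlaps *Cidea* on the other strand. A pseudogene, *Fabp3-ps1*, lies on chromosome 10, and the end of *Fabp3* overlaps *Zcchc17* on the other strand. The kit marked strand, but whether the counting used it is not given in the sources used here, so that reads of these genes may have been shared.

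The effector genes varied more between the sham libraries than between the injury libraries. The median size of the difference between replicates was 0.34 in the sham group and 0.12 in the injury group, against 0.15 and 0.19 over all genes. Sham replicate 2 was above sham replicate 1 in 9 of 10, the exception being *Cox8b*, where they differed by under 0.01. Over all genes this held for 48.4%, but it also held for 11 of 13 other brown adipocyte genes, 11 of 13 cytochrome c oxidase genes, 11 of 13 coenzyme A genes and 12 of 14 genes of fatty acid supply. Muscle genes had the reverse order, as it held for 0 of 9 smooth muscle and 1 of 9 skeletal muscle genes. In the injury group, replicate 2 was higher in 4 of 10. The medians of the 10 genes were 0.48 and 0.89 in the sham libraries and 1.76 and 1.78 in the injury libraries. The differences of *Ucp1* and *Dio2* rested most on single libraries. Without sham replicate 1 the difference of *Ucp1* was 0.66, and without sham replicate 2 it was 2.45. The difference of *Dio2* was 0.47 when injury replicate 1 was left out and came to 1.20 when injury replicate 2 was. *Cidea*, *Pank1* and *Aspg* also ranged by over 1.5 times, from 1.63 to 2.68, from 0.89 to 1.46 and from 0.72 to 1.32, in each case lowest without sham replicate 1 and highest without sham replicate 2. *Cox8b*, *Kcnk3* and *Fabp3* were the steadiest, at 0.72 to 0.84, 0.96 to 1.13 and 1.87 to 2.22.

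**Figure D3:**
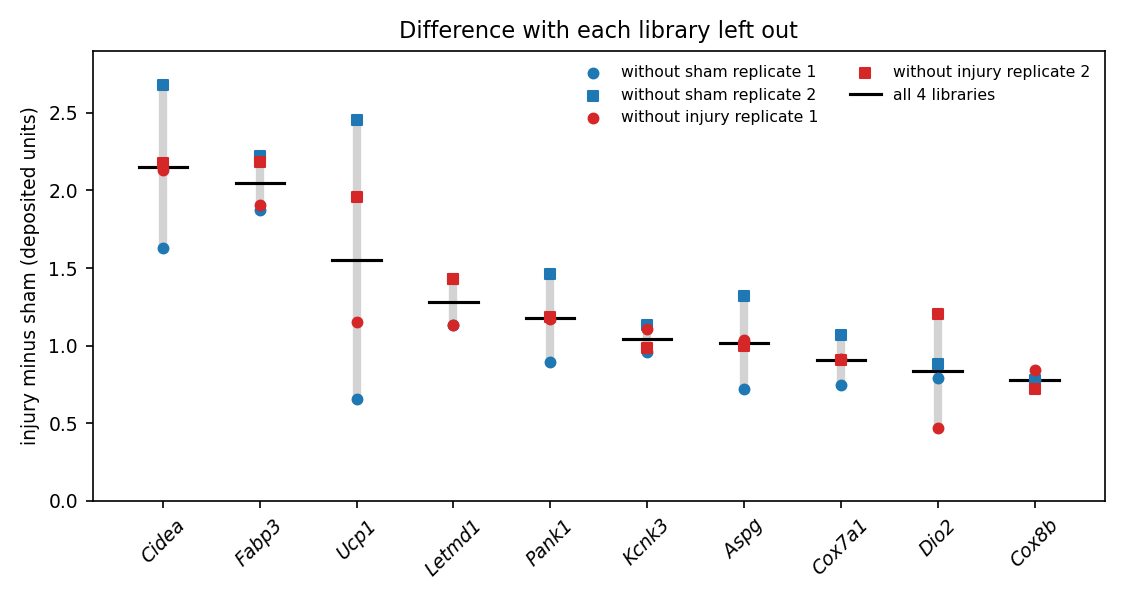
Difference between injury and sham means (deposited units) of each effector gene with all 4 libraries (black line) and with each library left out in turn (points, the grey bar joins the lowest and the highest). The bar is longest for *Ucp1*, from 0.66 to 2.45, and short for *Cox8b*, from 0.72 to 0.84.

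Of 18 other genes of brown adipocytes looked for, 13 were measured, and *Elovl3*, *Slc27a2*, *Bmp8b*, *Fgf21* and *Cited1* were not. Among the 13, *Cpt1b* and *Elovl6* were called higher after injury and none was called lower. Of all genes, limma called 941 (7.43%), 3.76% higher and 3.67% lower. *Cpt1b*, the muscle-type carnitine palmitoyltransferase through which fatty acids enter mitochondria, was at 0.59 and 1.22 in the sham libraries and at 2.53 and 2.55 in the injury libraries. It rose by 1.63 (adjusted p = 0.0291, limma). *Elovl6*, a fatty acid elongase, rose by 1.19 (adjusted p = 0.0436, limma). The median difference of the list was 1.14, close to that of the effector genes, and 10 of the 13 had both injury libraries above both sham libraries, against 31.6% of all genes. The receptor gene *Adrb3* had the opposite order, at 0.49 and 0.75 after sham operation and at -0.43 and 0.13 after injury, without being called (difference -0.77, adjusted p = 0.0953, limma). *Nrg4*, a factor secreted by brown fat, had the same order as *Adrb3* (-0.29, adjusted p = 0.269, limma). The coactivator gene *Ppargc1a* overlapped between groups, at 1.30 and 0.89 and at 1.64 and 1.26. Both calls were lost after quantile normalization (adjusted p = 0.0788 for *Cpt1b* and 0.0605 for *Elovl6*, limma). The number of genes called by limma changed widely when a single library was left out, and why it changed was not tested. Such a fit keeps a lone library in one group and takes its spread from the other group only.

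**Figure D4:**
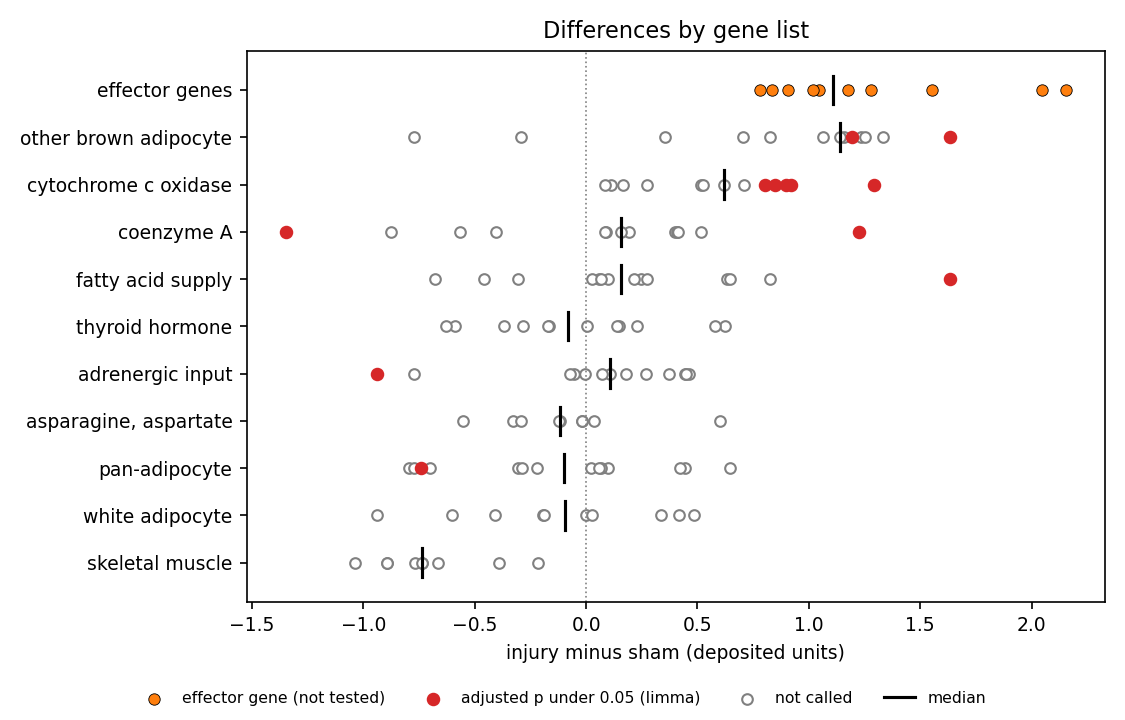
Injury minus sham (deposited units) of the effector genes (orange, not tested) and of 10 gene lists, 1 point a gene. Red points passed an adjusted p of 0.05 in limma, open points did not, and black bars are medians. The effector genes (median 1.11) and the other brown adipocyte genes (1.14) lie to the right, and the pan-adipocyte (-0.10) and white adipocyte (-0.10) lists lie around 0. Lists of immune, vascular and nerve cells are not drawn. Their medians were higher still for macrophages (1.34) and neutrophils (1.85), and below 0 for smooth muscle (-2.18), endothelium (-0.61) and Schwann cells (-0.59).

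The other genes of cytochrome c oxidase, many of which most cells express, had higher means after injury as well. Of 13 subunit and related genes other than the effector genes, 5 were called higher and none lower, where 3.76% and 3.67% of all genes were. In 12 of the 13 both injury libraries were above both sham libraries, against 31.6% of all genes, and the median difference was 0.62. *Cox5a* rose by 1.29 (adjusted p = 0.0285, limma), from -0.43 and -0.15 to 0.93 and 1.07, which is more than the differences of *Cox8b* and *Cox7a1*. *Cox6a1* (0.92), *Cox7c* (0.90) and *Cox6c* (0.85) rose too, with adjusted p of 0.0330, 0.0319 and 0.0409 from limma, and so did the fifth, *Cox6b1* (0.80, adjusted p = 0.0447, limma), which lost its call after quantile normalization (adjusted p = 0.0516, limma). The forms of the same subunits found in most tissues, *Cox8a* and *Cox7a2*, differed by 0.53 and 0.51 and were not called (adjusted p = 0.0778 and 0.0825, limma), beside 0.78 for *Cox8b* and 0.91 for *Cox7a1*. None of the 13 lay to the left of 0, and the lowest was *Cox6b2* at 0.08.

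Relatives of the effector genes in their own families did not share one direction. Of 20 measured, 2 were called higher and 1 lower, where 3.76% and 3.67% of all genes were, and the median difference was 0.22. *Ucp2*, an uncoupling protein relative that is abundant in immune cells, was at -0.72 and -0.61 in the sham libraries and at 0.33 and 0.24 in the injury libraries, and rose by 0.95 (adjusted p = 0.0294, limma). *Ucp3*, the relative found in muscle and brown fat, had a difference of 0.82 (adjusted p = 0.0756, limma). Of the relatives of *Kcnk3*, *Kcnk13* rose by 1.31 (adjusted p = 0.0285, limma) and *Kcnk5* fell by 1.47 (adjusted p = 0.0306, limma), while *Kcnk2* (-0.66) and *Kcnk6* (0.50) were not called. Among lipid droplet and fatty acid binding relatives, *Cidec*, a marker of adipocytes, had a difference of -0.29, *Cideb* of 0.66, *Fabp4* of 0.10 and *Fabp5* of 0.25, none of them called, beside 2.15 for *Cidea* and 2.05 for *Fabp3*. *Pank2*, *Pank3* and *Pank4* differed by 0.19, -0.40 and 0.16, *Letm1* and *Letm2* by 0.30 and 0.29, and *Asrgl1* and *Aga* by -0.02 and -0.33, also without a call. *Cox7a2l*, a further relative of *Cox7a1*, differed by 0.17.

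Few genes of the pathways around the effector genes were called. Next to *Pank1*, 1 of 13 coenzyme A genes was called higher and 1 lower, near the shares of all genes (3.76% and 3.67%). The mitochondrial coenzyme A carrier gene *Slc25a42* was at 0.05 and 0.19 after sham operation and at 1.23 and 1.46 after injury, and rose by 1.23 (adjusted p = 0.0285, limma). *Slc5a6*, which encodes the transporter that takes up pantothenate and biotin, fell by 1.35 (adjusted p = 0.0285, limma), from 0.70 and 0.72 to -0.82 and -0.46. Of 14 genes of fatty acid supply and oxidation, *Cpt1b* alone was called, and the median difference was 0.16. *Slc25a20* and *Cpt2*, also in the transport of fatty acids into mitochondria, differed by 0.82 and 0.63 (adjusted p = 0.0659 and 0.0632, limma). *Cpt1a* differed by 0.03. The means of 3 of the 14 were lower after injury, those of *Slc27a1* (-0.68), *Acsl1* (-0.46) and *Lipe* (-0.30). Of 13 genes between noradrenaline and cAMP signalling, the adenylyl cyclase gene *Adcy4* fell by 0.94 (adjusted p = 0.0291, limma), and none was called higher. Of those not called, *Adrb3* was furthest from 0, at -0.77, and *Adcy3*, *Rgs2* and *Prkaca* differed by 0.46, 0.45 and 0.44. *Adrb1* was not among the genes measured. None of 12 thyroid hormone genes was called by limma, with 4 at an unadjusted p under 0.05, and those furthest from 0 were *Klf9* (-0.63) and *Thrsp* (0.63). None of 9 genes of asparagine and aspartate was called by limma, with 2 at an unadjusted p under 0.05, *Got1* (0.60) and *Slc1a5* (-0.55).

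Markers of other cells in the tissue also differed between the groups, and their part in the differences of the effector genes was not tested. Of 14 pan-adipocyte genes, *Plin1* fell by 0.74 (adjusted p = 0.0444, limma) and none was called higher, and the median difference was -0.10. The list's mean was 0.28 and 0.37 in the sham libraries and -0.07 and 0.43 in the injury libraries. Of 10 white adipocyte genes limma called none, with 3 at an unadjusted p under 0.05, and *Retn* (-0.94) and *Car3* (-0.60) were furthest from 0. Skeletal muscle shares *Cox8b*, *Cox7a1* and *Fabp3* with brown fat, and 9 of 19 muscle genes were analysed here. The means of all 9 were lower after injury, and 7 had no overlap between groups (30.3% of all genes), and limma called none, with 6 at an unadjusted p under 0.05. The mean of these 9 was 0.68 and 0.01 in the sham libraries and -0.31 and -0.41 in the injury libraries. *Mylpf* (-1.04) and *Mb* (-0.89) were furthest from 0. Of 14 macrophage genes 8 were called higher, with list means of -1.12 and -1.10 after sham operation and 0.37 and -0.14 after injury. The macrophage mean was higher in injury replicate 1 and the pan-adipocyte mean in injury replicate 2. Of the effector genes, 6 were higher in injury replicate 1 and 4 in injury replicate 2. Of 8 neutrophil genes 2 were called higher, where 3.76% of all genes were. Called lower were 6 of 9 smooth muscle, 2 of 11 endothelial and 2 of 8 Schwann cell genes, where 3.67% of all genes were. The smooth muscle mean was 1.51 and 0.91 in the sham libraries and -1.30 and -0.27 in the injury libraries. Median differences were -2.18 for smooth muscle, -0.61 for endothelium and -0.59 for Schwann cells, beside 1.34 for macrophages and 1.85 for neutrophils. All 9 smooth muscle and 10 of the endothelial genes had both injury libraries below both sham libraries, against 30.3% of all genes.

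The genes whose pattern over the 4 libraries was most like that of *Ucp1*, by the root mean square distance between values after each gene's mean over the 4 was subtracted, were *Gyk* (0.21), *Perm1* (0.29), *Pvrl4* (0.33), *Otop1* (0.33) and *Acot11* (0.35). Over 4 libraries this likeness is a description only. *Gyk*, the glycerol kinase gene, was at -0.41 and 1.08 in the sham libraries and at 1.84 and 1.30 in the injury libraries. Like *Ucp1*, all 5 were lowest in sham replicate 1 and highest in injury replicate 1, and none was called by limma. *Gyk*, *Otop1* and *Acot11* also stood in the list of other brown adipocyte genes. Among the effector genes *Cidea* was nearest to *Ucp1* (0.48, rank 54 of all genes) and *Cox8b* farthest (0.81, rank 1170).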

How the data were processed

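RNA from 2 sham and 2 injury PVAT samples was sequenced as stranded, polyadenylated libraries. Per the labels and the study's methods, the authors used FastQC 0.11.8, cutadapt 1.18, Trimmomatic 0.39, STAR 2.6.0a with mm9, featureCounts and DESeq2 1.28.0 in R 3.6.0. The deposited values are a score, signed and centred per gene. How the authors made it from counts, and which filter left 12661 genes, is not given in the sources used here. A count model could not be used, so limma 3.58.1 in R 4.3.3 (group only, no trend, all 4 libraries) was fitted in place of the planned count test and tested on simulated data. It had 2 residual and 3.48 prior degrees of freedom per gene. An exact permutation test of 2 against 2 libraries cannot go below p = 0.333.

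The 10 genes and the lists were chosen with earlier results of these data known. Named were all 10, their relatives, and in each list of brown adipocyte or pathway genes the called genes, up to 4 with the largest difference, or else 2. *Adrb3*, *Nrg4*, *Ppargc1a*, *Adcy3*, *Rgs2*, *Prkaca*, *Slc25a20*, *Cpt2*, *Cpt1a*, *Slc27a1*, *Acsl1*, *Lipe*, *Cox6b1* and *Cox6b2* were named beyond that rule or after their values were seen. The lists of immune, vascular and nerve cells are given by counts, with list means or median differences. The 5 genes nearest to *Ucp1* were also named. Alternatives were a replicate block, each library left out, a threshold of 0.1, quantile normalization, columns scaled to one spread and a robust prior. Gene positions are those of GENCODE on mm9, in which 92.3% of symbols were found. Python 3.11.15 with numpy 2.4.6, pandas 2.3.3 and matplotlib 3.10.9 made the tables and plots.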

Additional observations from a re-analysis of the deposited data

How the results depend on the processing

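All 10 effector genes kept a higher injury mean under each setting run. As their groups did not overlap, leaving out a library could not have changed this. Nor could the replicate block, the threshold or the prior, so that only the scalings of the columns could have. The median difference of the 10 was 0.84 to 1.37 with each library left out, 1.01 after quantile normalization and 1.22 with columns scaled to one spread. The number with no overlap was 8 and 10 under these scalings. Of 941 genes called by limma, 476 higher and 465 lower, a threshold of 0.1 gave 2317, 1166 higher and 1151 lower. Quantile normalization gave 1061, one spread 1140 and a robust prior 861. With each library left out, between 0 and 1790 were called, 0 to 943 higher and 0 to 847 lower, and a lone library was assumed to vary like the other group. The replicate block gave 684, 381 higher and 303 lower, the latter with 2 smooth muscle genes and 1 Schwann cell gene of the lists. The numbers pair the libraries by title only, and the deviations of same-numbered libraries had a correlation of -0.09 over genes. Of the other brown adipocyte genes called higher, there were 6 at a threshold of 0.1, 0 after quantile normalization, 4 with one spread and 0 to 3 with each library left out. Of the cytochrome c oxidase genes there were 3 with the replicate block, 9 at 0.1 and 0 to 3 with each library left out. Of 35 genes called in the lists or beside the effector genes, 11 lost their call with the block (among those named, *Cox6c*, *Cox6b1*, *Elovl6*, *Plin1* and *Tinagl1*, with adjusted p of 0.0516, 0.0547, 0.0612, 0.0656 and 0.0636 from limma), 5 after quantile normalization, 1 with one spread and 1 with the robust prior, and 21 lost it under none of these. The causes were not tested. A trend in the prior, a filter on abundance and count models were not run, because the values hold neither abundance nor counts. Depth is unknown, so that a difference missed by the test was not detectable here and is not shown to be absent.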

Other observations

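The nearest measured protein-coding genes on each side of the 10 effector genes, leaving out genes that overlap them, were examined, by a rule chosen after the table was seen. Of these 20 genes limma called none higher and 1 lower, *Tinagl1* beside *Fabp3* (-1.13, adjusted p = 0.0441), where 3.76% and 3.67% of all genes were. Both injury libraries were above both sham libraries in 10 and below them in 5, where 31.6% and 30.3% of all genes were, and the median difference was 0.22. *Psmd13*, 0.3 kb from *Cox8b*, differed by 0.22 and *Csrnp2*, 0.3 kb from *Letmd1*, by 0.60. *Capns1*, 0.9 kb from *Cox7a1*, differed by 0.16, beside 0.91 for *Cox7a1* itself. Around *Ucp1*, *Tbc1d9* differed by 0.98 and *Elmod2* by -0.22, neither of them called.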
